A study of Mus musculus with 4 samples.

Results

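The genes of the matrix metalloproteinases (Mmp), the Adamts proteases and the tissue inhibitors of metalloproteinases (Timp) were followed in whole testes of newborn mice. The members are all gene symbols of the deposited count table that consist of Mmp, Adamts or Timp, a number and at most 1 letter, which took 46 of 22609 genes: 23 Mmp, 19 Adamts and 4 Timp genes. RNA was sequenced from 2 testis libraries with a wild-type and 2 with a dominant-negative thyroid hormone receptor alpha 1, a receptor form that blocks the normal one. All 4 came from testes at postnatal day 3 on a mainly C57BL/6J background. The mice were bred from AmhCre mice, whose Cre recombinase is driven by the promoter of the Sertoli cell gene Amh, and mice heterozygous for the allele TRαAMI. The series asks for direct and indirect effects of this mutation when it is limited to Sertoli cells. Whether the wild-type mice carried AmhCre or the unrecombined allele is not stated, nor is whether each library is a separate animal. The tests therefore capture the spread among these libraries alone, which may be technical. Values of 4 libraries are given throughout in the order wild-type 1, wild-type 2, mutant 1, mutant 2, and pairs in the order of their numbers.

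Mmps are zinc-dependent proteases that cut collagens, laminins, proteoglycans and growth factor carriers outside the cell. Adamts proteases share the zinc-dependent catalytic centre, carry thrombospondin repeats that bind them to the matrix, and are best known for trimming procollagens and cutting large proteoglycans such as versican and aggrecan. Timps are small secreted inhibitors that fill the catalytic cleft. In the testis these families act on the basement membrane around the seminiferous cords and on the matrix between them.

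The zinc site unites the proteases, and it is shown because Mmp and Adamts genes encode it differently. In the longest coding sequence of each member in GENCODE M1, in-frame stretches of 11 codons were searched in which codons 1, 5 and 11 encode the zinc-binding histidines, codon 2 the catalytic glutamate and codon 8 glycine. All 23 Mmp genes and 13 of 19 Adamts genes held one, beside 0.317% of 21734 coding genes, and none of the 4 Timp genes did. With codon 8 left free, a step chosen after the first search was seen, all 19 Adamts genes held one (0.419% of coding genes). Codon 8 was asparagine in Adamts1, Adamts4, Adamts9, Adamts15 and Adamts20 and serine in Adamts8. The stretch lay within 1 exon in all 23 Mmp genes and ran across an exon junction in all 19 Adamts genes. Capitals mark the histidine and glutamate codons, 5′ to 3′ along the gene.
Mmp9: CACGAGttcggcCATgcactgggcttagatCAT
Mmp2: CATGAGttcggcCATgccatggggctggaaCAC
Mmp14: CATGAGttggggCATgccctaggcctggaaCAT
Adamts2: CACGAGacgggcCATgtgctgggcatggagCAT
Adamts5: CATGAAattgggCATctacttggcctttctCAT
Adamts1: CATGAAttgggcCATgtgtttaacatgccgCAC
Adamts8: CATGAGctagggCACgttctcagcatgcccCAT
The Mmp9 site is at chr2:164776633-164776665 (plus strand, mm9) in exon 8 of 13. The Adamts2 site spans chr11:50588905-50589636 (plus strand) and joins exons 7 and 8 of 22. Adamts1 and Adamts8 differ from the other sites shown in codon 8.

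Mmp9, Adamts19, Adamts2 and Timp2 rose in mutant testes and no tested member fell. Mmp9 rose 3.29-fold, Adamts19 2.51-fold, Adamts2 1.43-fold and Timp2 1.33-fold. Of 32 members with enough counts to test, these 4 (12.5%) passed edgeR's quasi-likelihood test at an adjusted p below 0.05 and 28 did not. No tested member was lower at the adjusted threshold, nor was any by DESeq2 or limma voom. At an unadjusted p below 0.05, 15 of 32 members passed and 0 of them were lower. Of all 14788 tested genes 3773 passed that unadjusted threshold, and 1862 of them were lower. Of all 14788 tested genes 5.67% passed, 3.15% higher and 2.52% lower. The log2 fold change (mutant minus wild type) was above 0 in 29 of the 32 members (90.6%), beside 49.2% of all tested genes. Its median was 0.32 over the members and -0.0060 over all tested genes. The groups did not overlap in 20 of 32 members (62.5%), beside 57.3% of all tested genes, a share close to the background. Both mutants lay above both wild types in 19 of 32 (59.4%), beside 28.3% of all tested genes. A further 7 members, Adamts7, Adamts1, Mmp16, Adamts6, Mmp15, Adamts16 and Adamts20, had adjusted p-values from 0.0542 to 0.0955. In whole testes, more cells of a type and more RNA per cell cannot be told apart.

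**Figure D1:**
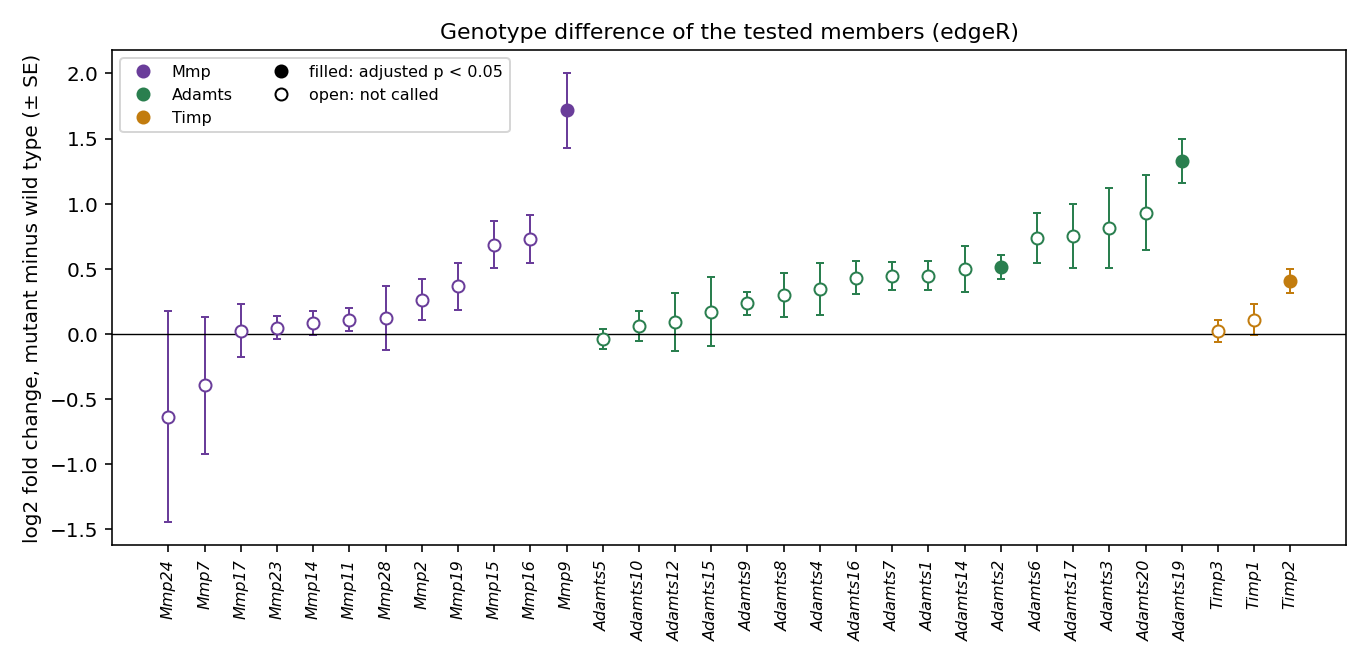
Log2 fold change, mutant minus wild type, with its standard error, for the 32 tested members by family. Filled points passed an adjusted p of 0.05: Mmp9 at 1.72, Adamts19 at 1.33, Adamts2 at 0.51 and Timp2 at 0.41, while Mmp24, Mmp7 and Adamts5 are the members below 0.

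Gene counts summed to 10230512 to 15636832 per library, and levels are given as CPM, the count scaled to a common library size. Skeletal muscle markers stood apart: 7 of 10 rose, and they summed to 18.4 and 17.7 in wild type and 2193 and 573 CPM in mutants. Sertoli cell markers, those of the cells that carry the mutation per the series' title, summed to 6652, 7192, 5583 and 5637 CPM. The sum was lower in both mutants, and of 13 tested 3 fell and 1 rose. Aard, which fell, stood at 1227, 1584.5, 646 and 748 CPM, and Clu, not called, at 1902, 2055, 1576 and 1584 CPM. Amh, Inha, Wt1, Gata4 and Fshr were not called, with log2 fold changes of -0.021, -0.036, 0.048, 0.17 and 0.11. Dhh, Krt18 and Sox9 were not called either, at -0.26, -0.13 and -0.42. Germ cell markers summed to 947, 633, 367 and 312 CPM, and of 12 tested 10 fell and none rose. The part of these shifts in the members' values was not tested. Fetal Leydig cell markers, none of 7 called, summed to 1302, 1445, 1555 and 1526.5 CPM, higher in both mutants, with a median log2 fold change of 0.088. Thra, the mutated receptor's gene, stood at 398, 257, 237 and 194 CPM (adjusted p = 0.0964), which does not check the genotype because counts per gene do not separate receptor forms.

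Per kilobase of exon, the scale on which genes can be compared, 4 Mmp genes held nearly the whole Mmp signal. Mmp14, Mmp2, Mmp11 and Mmp23 made up 93.9%, 93.4%, 93.1% and 92.0% of the summed Mmp level. Mmp14, the membrane-anchored collagenase that activates pro-Mmp2, ranged over libraries from 113 to 130.0 CPM per kb. Mmp2 ranged from 74.9 to 118 and Mmp11, a stromal protease also called stromelysin-3, from 75.00 to 87.4, so the ranges of neighbours overlapped. Within libraries, Mmp14 was above Mmp2 in all 4, and Mmp2 was above Mmp11 in 3 and level with it in wild-type 2. Mmp23, anchored by its N-terminal part, was lower without overlap at 35.8 to 38.3 CPM per kb, and the fifth, Mmp15, lower again at 3.87 to 7.91. None of the 4 abundant genes was called. Mmp14 stood at 302, 294, 338 and 294 CPM, with overlapping groups and a log2 fold change of 0.083 ± 0.094 (SE; adjusted p = 0.619), which became -0.020 without mutant 1. Mmp11 stood at 211, 198, 231 and 211 CPM (0.11 ± 0.087, adjusted p = 0.47). For Mmp23 the levels were 83.7, 86.4, 86.1 and 89.6 CPM (0.049 ± 0.087, adjusted p = 0.77). The difference was smaller than its standard error in Mmp14 and Mmp23 and slightly larger in Mmp11.

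**Figure D2:**
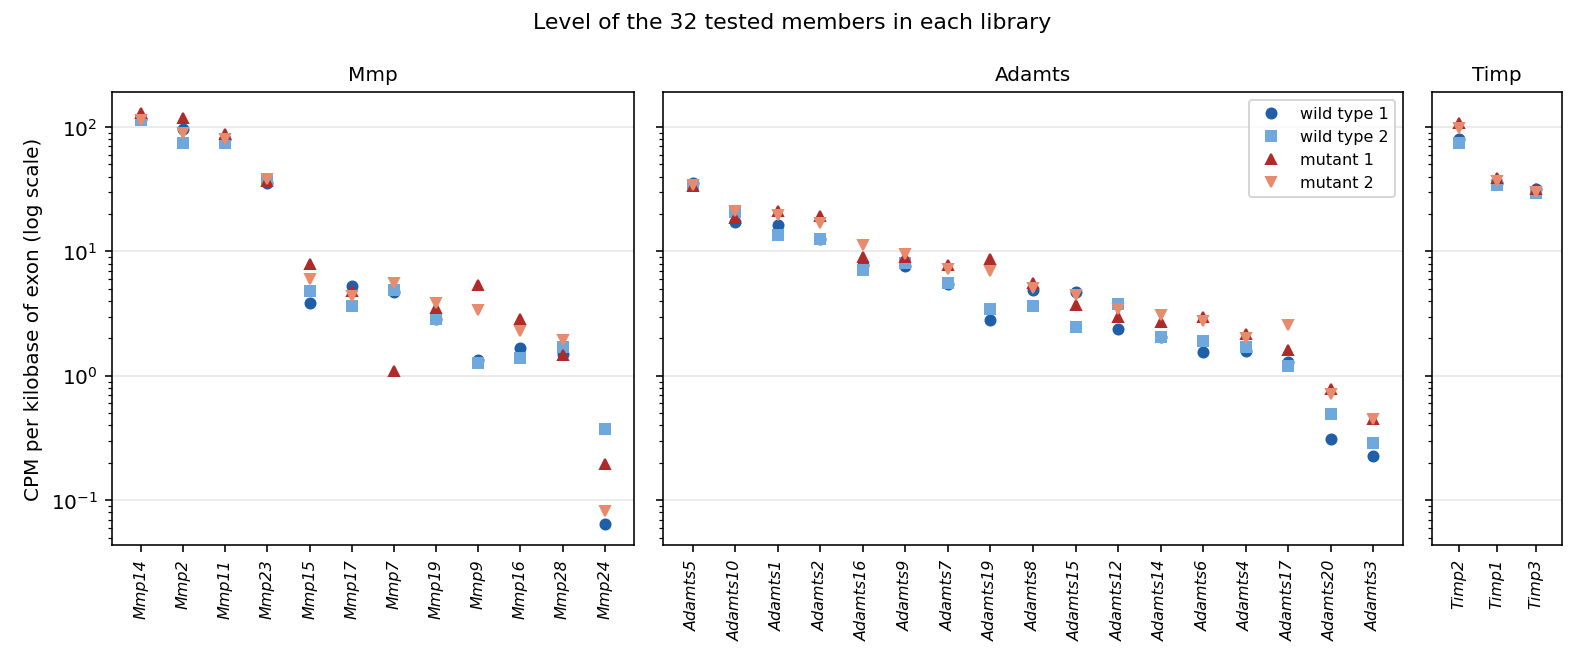
Level of the 32 tested members in each of the 4 libraries, in CPM per kilobase of exon on a log scale, by family. Mmp14, Mmp2, Mmp11 and Mmp23 stand far above the other 8 Mmp genes, and mutant 1 sits alone at the bottom of Mmp7.

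The gelatinases Mmp2 and Mmp9 cut denatured collagen and the type IV collagen of basement membranes. Mmp9 (chromosome 2, 164766280 to 164781350, plus strand, mm9) had 4.73 and 4.51 CPM in the wild-type and 19.1 and 11.9 CPM in the mutant libraries. Both mutants were far above both wild types, and mutant 1 was the higher. Its log2 fold change was 1.72 ± 0.29 (edgeR adjusted p = 0.021), from 109 counts in the wild-type and 397 in the mutant group. Leaving out wild-type 1 or wild-type 2 ended the call (adjusted p = 0.12 and 0.0941), and over the 4 fits with a library left out the log2 fold change ran from 1.36 to 2.04. Mmp2 (chromosome 8, 95351227 to 95377316, plus strand), the gelatinase of fibroblasts, stood at 294, 227, 358 and 270.1 CPM. Mutant 2 lay between the wild types, and the log2 fold change of 0.26 ± 0.16 was not called (adjusted p = 0.331). It was 0.049 without mutant 1 and 0.46 without wild-type 1. Per kb, Mmp9 was the minor gelatinase in each library, at 1.27 to 5.40 CPM per kb.

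Membrane-type Mmps stay on the cell surface. Mmp15 had 16.8 and 20.8 CPM in wild type and 34.4 and 26.1 CPM in mutants, a log2 fold change of 0.68 ± 0.18 (adjusted p = 0.0651). Mmp16 had 14.6 and 12.1 CPM and 25.02 and 19.8 CPM, one of 0.73 ± 0.19 (adjusted p = 0.0593). In both genes the mutants lay above the wild types without overlap, and mutant 1 was highest. DESeq2 called both (adjusted p = 0.0374 and 0.04), and so did edgeR without mutant 2 (adjusted p = 0.00578 and 0.0117). Mmp17, held in the membrane by a lipid anchor, overlapped between groups at 18.3, 12.6, 16.7 and 15.3 CPM (adjusted p = 0.951). Mmp24 had 4, 18, 10 and 6 counts (-0.64 ± 0.81, adjusted p = 0.667), and Mmp25 had 3, 8, 12 and 8 and was not tested. Both overlapped. Mmp24 shares 637 exon bases with a noncoding gene on the other strand. No strand setting is stated, and the authors' table sets ambiguous reads apart, so reads of the shared bases may be missing from both genes. Of the other secreted Mmps, Mmp19 stood at 9.76, 9.80, 12.01 and 13.1 CPM (0.36 ± 0.18, adjusted p = 0.255) and Mmp28 at 5.78, 6.57, 5.73 and 7.47 CPM (adjusted p = 0.792). Mmp19 separated the groups and Mmp28 did not. Both share exon bases with genes on the other strand, 789 for Mmp19 and 465 for Mmp28.

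The 10 Mmp genes clustered on chromosome 9 (7272514 to 7699585, mm9, 427.1 kb) had few counts or none. They include the collagenases Mmp13, Mmp8, Mmp1a and Mmp1b, the stromelysins Mmp3 and Mmp10, the macrophage elastase Mmp12, the enamel protease Mmp20, Mmp27 and the epithelial protease Mmp7. Of these 6 had no count in any library, which allows up to 3 counts over a group. Mmp3 had 1 count in all, Mmp1b 2, and Mmp8 had 0, 1, 2 and 4 in the 4 libraries. Mmp21, outside the cluster, had none. Mmp1a and Mmp1b are close copies, and the authors' table sets reads with several alignments apart, so reads they share would be missing from both.

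Mmp7 was the cluster gene with 10 counts or more, and 1 library set its difference. It had 67 and 54 counts in wild type, 13 in mutant 1 and 94 in mutant 2, or 5.03, 5.29, 1.18 and 6.00 CPM. The 2 mutants were the lowest and the highest library, and the log2 fold change was -0.40 ± 0.52 (adjusted p = 0.679). Without mutant 2 it was -2.11 and called lower (adjusted p = 0.00624), and without mutant 1 it was 0.22 (adjusted p = 0.806).

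Promoters of this cluster differed in letters from those of the other members. RefSeq windows (GRCm38.p6) were found for 32 members, 35 windows in all, and the 250 bases before each start were placed on mm9 by exact match. Both strands were searched. The AP-1 letters TGANTCA were searched with any base as N, while dimers of Fos and Jun proteins bind the form with C or G there. None of the 22 other members with a window held the letters. They occurred in 8 of the 10 cluster genes (with A as N in Mmp20), beside 6.75% of all 32851 windows. The TATA box TATAAA occurred in 7 of these 8, all but Mmp12, and outside the cluster in Adamts1 and Mmp21 (12.4% of all windows). The GC box GGGCGG occurred in 16 of the 22 other members and in none of the cluster (32.7% of all windows). The thyroid hormone receptor half-site AGGTCA occurred in Mmp10, Mmp12, Mmp1a and Mmp1b (4607 of all windows), overlapping no AP-1 match, and its direct repeat with 4 bases between in no member (5 of all windows). A match is a string of letters and shows no binding, and neighbours in a gene cluster are relatives, not independent cases. The 100 bases before the start of 5 cluster genes show the AP-1 letters upstream of the TATA box, with all matches in capitals. Mmp7 has a second RefSeq window, whose last 100 bases hold no match.
Mmp13 (chr9:7272414-7272513, plus strand): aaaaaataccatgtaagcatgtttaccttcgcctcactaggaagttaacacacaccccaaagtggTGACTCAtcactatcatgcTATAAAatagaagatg
Mmp3 (chr9:7445722-7445821, plus strand): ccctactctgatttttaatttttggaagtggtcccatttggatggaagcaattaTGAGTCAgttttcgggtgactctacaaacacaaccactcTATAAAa
Mmp1a (chr9:7464041-7464140, plus strand): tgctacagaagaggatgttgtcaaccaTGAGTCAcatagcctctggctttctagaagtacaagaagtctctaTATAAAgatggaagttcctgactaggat
Mmp10 (chr9:7502242-7502341, plus strand): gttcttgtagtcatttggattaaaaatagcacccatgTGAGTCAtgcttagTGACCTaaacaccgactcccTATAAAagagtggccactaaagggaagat
Mmp7 (chr9:7691990-7692089, plus strand): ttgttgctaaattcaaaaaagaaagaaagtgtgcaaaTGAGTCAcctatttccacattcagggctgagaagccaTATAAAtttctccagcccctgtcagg

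Adamts genes had a median log2 fold change of 0.44 over the 17 tested, and 16 of them were above 0. Of the 17, 2 rose, none fell and 15 were not called. The mutants lay above the wild types in 13 of 17 (76.5%), beside 28.3% of all tested genes, and below in 1, Adamts5. Summed over the family, the level was 888, 883, 1057 and 1069.5 CPM. Markers of interstitial fibroblasts, none of 8 called, summed to 3639.6, 2896, 4148 and 4304 CPM. Col1a1, an abundant one of them, stood at 1270.1, 761, 1646 and 1578 CPM. Tcf21, Dpt and Mfap5 had log2 fold changes below 0 (-0.060, -0.085 and -0.16), and the other markers of the list had values above 0. The part of the fibroblast markers in the Adamts values was not tested.

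Adamts2, Adamts3 and Adamts14 remove the N-terminal propeptide of procollagens. Adamts2 (chromosome 11, 50415586 to 50621075, plus strand) had 118 and 119 CPM in the wild-type and 179 and 159 CPM in the mutant libraries. The wild types were nearly equal and both mutants were well above them. The log2 fold change of 0.51 ± 0.090 was called (adjusted p = 0.0226), but not without wild-type 1, wild-type 2 or mutant 1 (adjusted p = 0.11, 0.0885 and 0.0574). Adamts14 stood at 10.7, 10.7, 14.1 and 16.02 CPM (0.50 ± 0.18, adjusted p = 0.129), and Adamts3 at 1.95, 2.45, 3.82 and 3.83 CPM (0.81 ± 0.31, adjusted p = 0.148). Both separated the groups and neither was called. Of their substrates, Col1a1 stood at 1270.1, 761, 1646 and 1578 CPM and Col3a1 at 3948, 2797, 5146 and 4999 CPM (adjusted p = 0.0964 and 0.0941). Col1a2 stood at 2482, 1612, 2890 and 2723 CPM (adjusted p = 0.187). Col2a1 was low and overlapped, at 0.526, 1.18, 1.46 and 0.638 CPM (adjusted p = 0.82). None of these was called, and all were named after their values were seen.

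Adamts2 and Timp2 are the called members with a promoter window. Their 250 bases before the start hold the GC box, 5 times in Adamts2 and 1 time in Timp2, and none of the other motifs. Capitals mark its matches on either strand.
Adamts2 (chr11:50415337-50415586, plus strand): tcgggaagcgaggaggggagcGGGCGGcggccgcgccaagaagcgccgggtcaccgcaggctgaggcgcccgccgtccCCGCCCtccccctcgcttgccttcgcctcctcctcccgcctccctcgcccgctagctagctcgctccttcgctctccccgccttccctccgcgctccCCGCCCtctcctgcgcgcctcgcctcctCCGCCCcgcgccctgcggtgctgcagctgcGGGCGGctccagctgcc
Timp2 (chr11:118216726-118216975, minus strand): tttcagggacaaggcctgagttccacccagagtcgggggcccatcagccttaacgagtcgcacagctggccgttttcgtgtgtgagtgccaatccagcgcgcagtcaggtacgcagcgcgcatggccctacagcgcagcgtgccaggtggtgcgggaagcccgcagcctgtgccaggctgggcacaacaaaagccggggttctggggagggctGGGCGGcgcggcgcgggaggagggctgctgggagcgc

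Adamts19 (chromosome 18, 58996418 to 59213332, plus strand), an orphan protease with no settled substrate, had 13.1 and 16.1 CPM in wild type and 40.7 and 32.7 CPM in mutants. The groups were wide apart, with mutant 1 again the highest library. Its log2 fold change was 1.33 ± 0.17, with the smallest adjusted p of the members, 0.00963. The call held in 3 of 4 fits with a library left out and was lost without wild-type 1 (1.18, adjusted p = 0.0811). Adamts17, its closest relative, stood at 9.39, 8.72, 11.7 and 18.4 CPM. Both mutants were above the wild types but far from each other, and the log2 fold change of 0.75 ± 0.25 was not called (adjusted p = 0.106). It was 1.02 and called without mutant 1 (adjusted p = 0.00989).

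The enzymes that cut versican and aggrecan differed among themselves. Adamts5, the most abundant Adamts gene at 33.6 to 35.2 CPM per kb, stood at 285, 278, 272 and 276 CPM (-0.041 ± 0.079, adjusted p = 0.792). Adamts1, 55.1 kb away on chromosome 16 and on the same strand, had 86.8 and 71.5 CPM in wild type and 112 and 104 CPM in mutants. The groups did not overlap, and its log2 fold change of 0.45 ± 0.11 missed the threshold (adjusted p = 0.0563) but passed by DESeq2 (adjusted p = 0.0233). Adamts9 stood at 95.7, 102, 113 and 119 CPM (0.23 ± 0.087, adjusted p = 0.142) and shares 1381 exon bases with a gene on the other strand. Adamts20 stood at 2.78, 4.41, 7.10 and 6.38 CPM (0.93 ± 0.29, adjusted p = 0.0955), a low level with the largest log2 fold change of this subgroup. Adamts4, at 7.59, 8.23, 10.5 and 9.64 CPM, and Adamts8, at 22.5, 16.9, 25.6 and 23.4 CPM, separated the groups by less (0.34 ± 0.20 and 0.30 ± 0.17), and Adamts15 overlapped at 27.8, 14.7, 21.8 and 26.5 CPM (adjusted p = 0.73). Versican (Vcan) itself stood at 97.9, 66.95, 103 and 122 CPM and was not called (adjusted p = 0.146). Aggrecan (Acan), named after its values were seen, stood at 2.70, 3.72, 5.915 and 9.13 CPM. It separated the groups and was not called (1.28 ± 0.32, adjusted p = 0.0566).

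Adamts16, a gene tied to testis development, stood at 53.5, 48.7, 61.4 and 76.3 CPM. Both mutants were above the wild types, mutant 2 by more, with a log2 fold change of 0.43 ± 0.13 (adjusted p = 0.0803), and the gene was called without mutant 1 (0.58, adjusted p = 0.0163). Adamts7, which cuts cartilage oligomeric matrix protein, stood at 35.1, 35.8, 49.96 and 46.4 CPM (0.44 ± 0.11, adjusted p = 0.0542), with groups clearly apart. It passed with upper quartile scaling and in the robust fit (adjusted p = 0.0493 and 0.0497). Adamts12, its nearest relative, overlapped at 14.8, 23.5, 18.5 and 21.7 CPM (adjusted p = 0.832). Adamts6 stood at 7.81, 9.61, 15.02 and 13.9 CPM (0.74 ± 0.19, adjusted p = 0.0647), and its relative Adamts10, which binds fibrillin, at 94.9, 113, 101 and 116 CPM (0.062 ± 0.11, adjusted p = 0.779). Adamts6 separated the groups and Adamts10 did not. Adamts18, with 15 counts in all, and Adamts13, the von Willebrand factor protease, with 4, were not tested.

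Timp2 carried most of the inhibitor signal, 54.2%, 53.4%, 60.3% and 59.2% of the summed Timp level per kb. Timp2 (chromosome 11, 118162383 to 118217054, minus strand), which with Mmp14 also serves to activate pro-Mmp2, had 314 and 288 CPM in wild type and 419 and 380.5 CPM in mutants. The groups did not overlap, and the log2 fold change was 0.41 ± 0.092 (adjusted p = 0.0441). It was called in 1 of 4 fits with a library left out, that without mutant 2 (adjusted p = 0.0285), and not without wild-type 1, wild-type 2 or mutant 1 (adjusted p = 0.105, 0.131 and 0.179). Timp1 stood at 31.7, 30.6, 34.4 and 32.9 CPM, a small separation (0.11 ± 0.12, adjusted p = 0.595). Timp3, the matrix-bound inhibitor that also blocks several Adamts proteases, overlapped at 259, 240.1, 259.8 and 246 CPM (0.019 ± 0.085, adjusted p = 0.917). Per kb, Timp1 at 34.4 to 38.7 stood above Timp3 at 29.5 to 31.9 without overlap.

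Timp4, an inhibitor known from heart and fat, had 15 and 8 counts in wild type and 3 and 2 in mutants, too few for the test. Both mutants were below both wild types. The ratio of summed counts, wild type over mutant, was 5.21 (exact 95% interval 1.94 to 17.6, counting error only), and with no filter on low counts the log2 fold change of -2.32 ± 0.69 was not called (adjusted p = 0.114). Adipocyte markers, of which 3 of 6 fell and none rose, summed to 289, 249.7, 217 and 153 CPM. Lpl, not called and with overlapping groups, made up most of each sum, at 213, 166, 189 and 126 CPM. The 3 that fell did so by more than the sum. Fabp4 was 4.94-fold lower in mutants, Adipoq 15.8-fold and Cidec 34.3-fold. Mutant counts were few in Adipoq (3 and 4) and Cidec (0 and 1). The part of the adipocyte markers in the Timp4 counts was not tested. Timp1, Timp3 and Timp4 each lie inside a synapsin gene of the other strand, Syn1, Syn3 and Syn2. Timp3 and Syn3 share 1733 exon bases, and Syn3 was far lower, at 6.46, 7.35, 11.6 and 9.38 CPM.

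The balance of proteases and inhibitors was read as a ratio of levels. The summed Mmp level per kb over the summed Timp level was 2.35, 2.32, 2.24 and 2.11, lower in both mutants. The Adamts level over the Timp level was 0.836, 0.89, 0.841 and 0.919, which overlapped. These ratios were not tested. The smallest two-sided p of an exact permutation test of 2 against 2 is 0.333.

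Partners of these enzymes were read from 6 lists. Of 7 Adamts-like proteins, built like Adamts enzymes without the protease part, 2 rose and none fell (median log2 fold change 0.42): Thsd4 at 15.9, 15.2, 34.5 and 29.5 CPM (adjusted p = 0.0128) and Adamtsl5 at 10.4, 8.14, 19.3 and 21.9 CPM (adjusted p = 0.0201). Of 10 activators and serine protease partners tested, 2 rose and none fell (median 0.33). Pcsk5, a proprotein convertase, stood at 48.1, 46.95, 69.6 and 69.5 CPM (adjusted p = 0.022), and Plaur, the urokinase receptor, at 3.00, 3.72, 7.37 and 7.92 CPM (adjusted p = 0.0365). Furin, the main convertase of membrane-type Mmps, overlapped at 157, 186, 188 and 154 CPM and was named after its values were seen.

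Of 20 substrates tested, 2 rose and none fell (median log2 fold change 0.28). At an unadjusted p below 0.05, 9 were higher and 1 was lower, Bcan (-0.39 ± 0.099, adjusted p = 0.0596), named after its values were seen. Of all 14788 tested genes 3773 passed that unadjusted threshold, 1862 of them lower, which is the background for each list here. Cd44, a hyaluronan receptor that can hold Mmp9 at the cell surface, had 19.6 and 17.2 CPM in wild type and 55.2 and 41.3 CPM in mutants (1.38 ± 0.17, adjusted p = 0.00859). Its groups were far apart, with mutant 1 the higher, as for Mmp9. Fibronectin (Fn1) stood at 281, 196, 379 and 409 CPM (0.72 ± 0.15, adjusted p = 0.0365). None of 12 other metalloproteinases was called by edgeR with TMM scaling (median 0.28), Adam19 and Tll1 having the smallest adjusted p-values, 0.0507 and 0.0517, by DESeq2 0.0477 and 0.0878. Adam19 passed in edgeR with median ratio scaling, upper quartile scaling and the robust fit (adjusted p = 0.0498, 0.0467 and 0.0468), and Tll1 in the robust fit (adjusted p = 0.0473). At an unadjusted p below 0.05, 6 were higher and 0 lower. None of 13 inhibitors and clearance receptors was called either (median 0.028), with Cst3 at -0.33 and Serpine2 at 0.30 nearest (adjusted p = 0.0673 and 0.0922, by DESeq2 0.028 and 0.0327), and 3 were higher and 1 lower at an unadjusted p below 0.05. Of 13 AP-1, Ets and Runx factors tested, Fosl2 rose (0.44 ± 0.10, adjusted p = 0.0468) and none fell (median 0.26). Over the 4 fits with a library left out, adjusted p ran from 0.000373 to 0.0811 for Thsd4, 0.00113 to 0.0831 for Adamtsl5, 0.0223 to 0.0927 for Pcsk5, 0.0211 to 0.159 for Plaur, 4.34e-07 to 0.0729 for Cd44, 0.00116 to 0.0783 for Fn1 and 0.0347 to 0.188 for Fosl2. All 7 lost their call without wild-type 2, and all but Fn1 also without wild-type 1. Fosl2 lost its call in 6 of 14 alternative fits, among them limma voom, no filter on low counts and the replicate block (adjusted p = 0.0573, 0.0683 and 0.0624). Fn1 was not called in the robust fit or with no filter (adjusted p = 0.0618 and 0.055), nor Plaur with no filter (adjusted p = 0.0506).

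Markers of other cells moved with genotype in both directions, muscle, germ cell and Sertoli cell markers as given above. Of 6 mast cell markers tested 3 rose, Cma1, Cpa3 and Tpsb2, and the list summed to 81.6, 101, 167 and 183 CPM. Kit, not called, stood at 36.4, 37.2, 28.2 and 33.6 CPM, with both mutants below both wild types. Hdc, not called, overlapped at 21.5, 25.2, 21.7 and 19.3 CPM. Kit and Hdc together made up most of each wild-type sum. Of 9 macrophage markers 3 rose, with sums of 184, 206, 262 and 344 CPM, and of 6 mesothelial markers 4 rose, with sums of 465, 485, 602 and 720.4 CPM. Of 3 neutrophil markers tested 2 rose, S100a8 at 1.13, 0.686, 4.55 and 4.53 CPM and S100a9 at 1.05, 1.86, 7.83 and 8.62 CPM, while Lcn2, the most abundant of the list, stood at 73.9, 57.6, 23.3 and 70.99 CPM and was not called (adjusted p = 0.506). The neutrophil sum was 77.7, 60.97, 38.8 and 86.9 CPM, with overlapping groups and mutant 1 lowest, and Lcn2 made up most of it. The granule genes Elane, Mpo, Ltf, Camp and Ngp were low throughout and not tested. Camp had 3, 2, 9 and 7 counts and Ngp 1, 0, 14 and 8, with both mutants above both wild types in CPM. Elane, Mpo and Ltf overlapped. Cebpe, also of this list and not tested, had 6, 4, 1 and 4 counts, with both mutants below in CPM. The part of these cells in the values of Mmp9, Adamts19, Adamts2 and Timp2 was not tested. The fit without mutant 1 keeps mutant 2, with 573 CPM of muscle markers. In it Mmp9 and Adamts19 were called (1.36 and 1.17, adjusted p = 0.00323 and 0.000375) and Adamts2 and Timp2 were not (adjusted p = 0.0574 and 0.179).

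**Figure D3:**
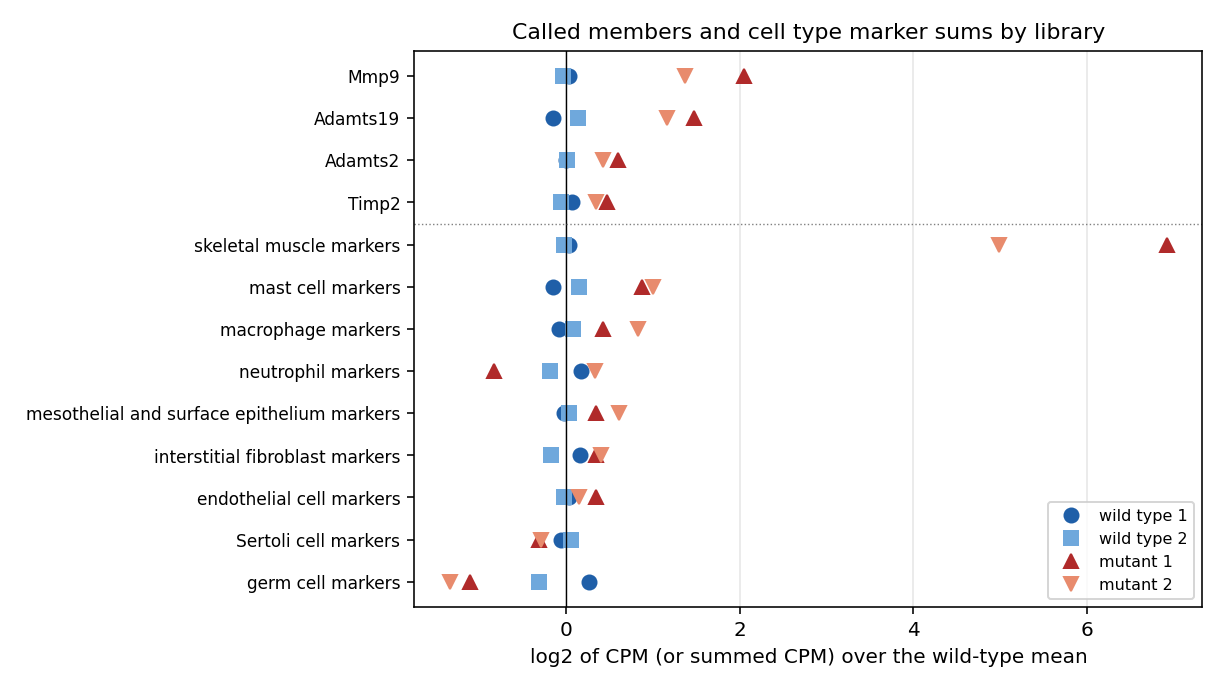
Log2 of the CPM of the 4 called members, and of the summed CPM of 9 lists of cell type markers, over the mean of the 2 wild-type libraries, in each library. In both mutants the 4 members and the muscle, mast cell, macrophage, mesothelial, fibroblast and endothelial markers lie above the wild-type mean. Sertoli and germ cell markers lie below it in both. In the fibroblast, endothelial, mast cell and Sertoli lists some markers move against the sum. The neutrophil sum, most of which is Lcn2, lies below it in mutant 1 and above it in mutant 2.

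How many members were called turned on which library was left out. Without wild-type 1 edgeR called none, with 13 at an unadjusted p below 0.05, and without wild-type 2 it called Adamts19 alone, where 0.491% and 0.967% of all genes were called. Without mutant 1 it called Mmp9, Adamts19, Adamts16 and Adamts17. Without mutant 2 it called 8, namely Mmp9, Mmp15, Mmp16, Adamts1, Adamts2, Adamts19 and Timp2 higher and Mmp7 lower. All genes called came to 5.58% and 8.59% in those fits. Mmp9, Adamts19, Adamts2 and Timp2 had log2 fold changes above 0 in all 4 fits, a sign fixed in advance because both mutants lay above both wild types.

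**Figure D4:**
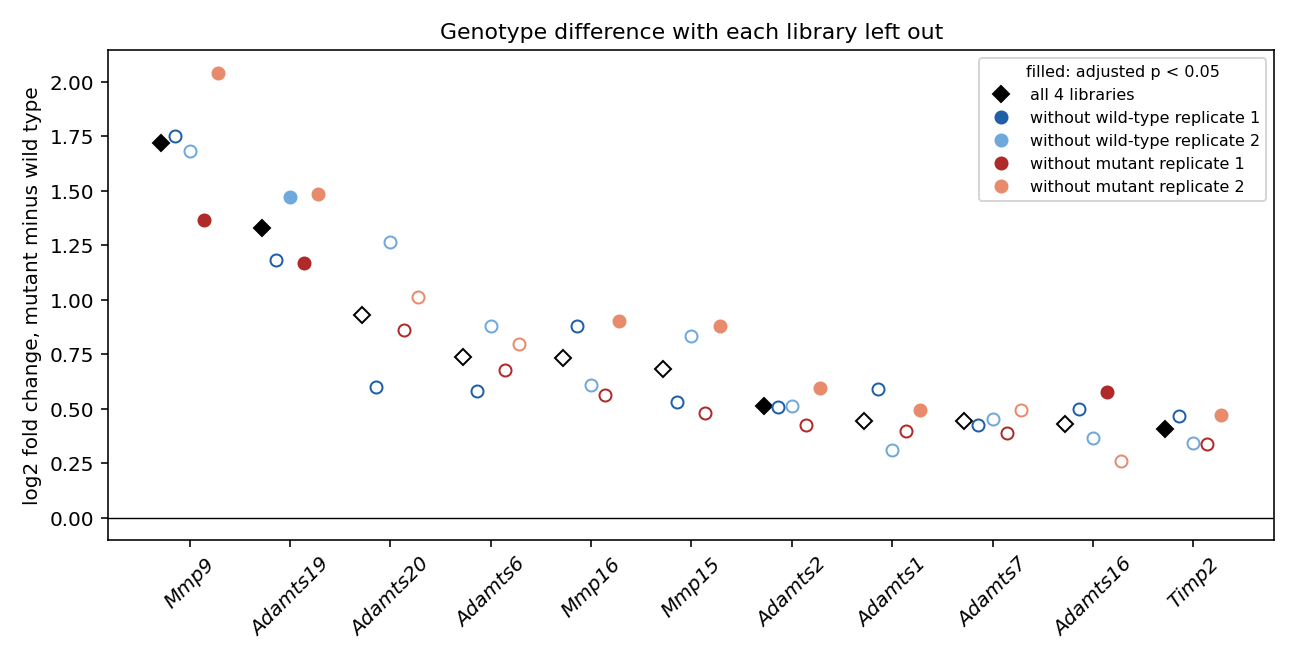
Log2 fold change of the 4 called members and of the 7 with an adjusted p from 0.05 to 0.1, with all 4 libraries and with each library left out in turn, filled where the adjusted p is below 0.05. All values stay above 0, a sign fixed in advance because both mutants lie above both wild types in each of these members. Points of the fits without a wild-type library are nearly all open.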

How the data were processed

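Poly(A) RNA of 4 whole-testis libraries was read single-end over 100 bases, per the labels' protocols. The submitters' processing notes name CASAVA 1.8.1, TopHat 1.4.0, HTSeq, DESeq2 and mm9, without roles, and the sources used here state no strand setting or annotation. The authors deposited 1 table of counts per gene, treated in the unit of estimated counts because its columns also hold percentages below the genes. The gene values are whole, so rounding them changed nothing. Lines that name no gene were left out, with 13.8% to 17.3% of counted reads outside genes.

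Genotype was the only term of edgeR 4.0.16 (R 4.3.3; quasi-likelihood F test, TMM scaling, minimum count 10 and minimum total 15), two-sided, with Benjamini-Hochberg adjustment over all tested genes. CPM used TMM-scaled library sizes, and SE was taken as the log2 fold change over the root of the F statistic. GENCODE M1 gave lengths and positions on mm9 for 21627 symbols, including all members. The fit was tested on simulated data. Other scalings and filters, DESeq2 1.42.0, limma 3.58.1, a replicate block and leaving out each library were tried. Same-numbered libraries did not deviate together (r = -0.0314).

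The members and lists were chosen with earlier results of these data known. Genes were named by rule: called members, those with an unadjusted p below 0.05, all Timps, the 5 Mmp and 8 Adamts genes highest per kb, Mmp2, Mmp9, Mmp14, Adamts1, Adamts5 and Adamts16, and per partner list up to 5 called genes or the 2 nearest. The other members are given so that all 46 are accounted for. A planned description of protein features was replaced by the coding sequence.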

Additional observations from a re-analysis of the deposited data

How the results depend on the processing

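Mmp9, Adamts19 and Adamts2 stayed called with other scalings, DESeq2, limma voom, robust or legacy fits and other filters, and Timp2 in all of these but the fit with no filter on low counts (adjusted p = 0.057). Higher members called came to 7 by DESeq2, and to 5 with upper quartile scaling and in the robust fit, where Adamts7 was added. Over all genes, 309 were called higher by limma voom, and 282 higher and 218 lower with no filter. The median log2 fold change with no filter was 0.32 for Mmp genes and 0.37 for all members, and 0.35 for all members with the stricter filter, since other genes were tested. With the replicate block, 853 genes and 6 members passed, Adamts1 and Mmp16 being added. The libraries share only a number.

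With each library left out in turn, all genes called higher ran from 34 to 818, all called lower from 40 to 477, members called higher from 0 to 7 and lower from 0 to 1. The median log2 fold change ran from 0.12 to 0.21 for Mmp, 0.40 to 0.51 for Adamts, 0.023 to 0.13 for Timp genes and 0.29 to 0.42 for all members. The sign changed for 9 members, none of them called with all libraries. Without wild-type 1 the log2 fold change was -0.066 for Adamts10 and -0.22 for Adamts12, and without wild-type 2 it was -0.20 for Adamts15, -0.20 for Mmp17, 0.98 for Mmp24 and -0.037 for Timp3. Without mutant 1 it was -0.020 for Mmp14, -0.035 for Mmp17, 0.22 for Mmp7 and -0.022 for Timp3, and without mutant 2 it was -0.043 for Adamts10, -0.038 for Adamts12 and -0.10 for Mmp28. Over the 4 fits it ran from -0.066 to 0.19 for Adamts10, -0.22 to 0.45 for Adamts12, -0.20 to 0.72 for Adamts15, -2.11 to 0.22 for Mmp7, -0.020 to 0.18 for Mmp14, -0.20 to 0.33 for Mmp17, -1.54 to 0.98 for Mmp24, -0.10 to 0.28 for Mmp28 and -0.037 to 0.071 for Timp3. In these fits 1 arm holds a single library, assumed to vary like the other group, and the cause was not tested. At this depth the 14 members below the count filter, Timp4, Mmp25, Adamts18, Adamts13 and Mmp8 among them, were not tested.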
